A study of Mus musculus with 8 samples.

Results

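EpCAM+ and EpCAM- cells sorted from monoculture of MCa-P1362, a mouse mammary tumour line, were compared, 2 libraries against 2. The comparison is described across the 11647 genes, of 24421 in the files, that reached 1 FPKM (fragment counts scaled to transcript length and library depth, so that levels of different genes are per length) in both libraries of either fraction. Of these genes, 9671 reached that level in both libraries of each fraction, 1053 only in EpCAM+ and 923 only in EpCAM-. The series holds 8 libraries, the 2 sort fractions of coculture and of monoculture with 2 libraries each, made from total RNA read as 150 bp pairs. MCa-P1362 was derived from a mammary tumour that arose without induction in a Balb/c breeding female, and it is a single line with no introduced allele named in the labels. All groups were grown in high glucose DMEM with fetal bovine serum and sorted by flow cytometry on EpCAM, a surface adhesion protein of epithelia. No drug or other agent is named. According to the protocol, cells were frozen at once when sorted, or were first grown and passaged; how monoculture and coculture relate to these steps is not said. The labels number the libraries of a group 1 and 2 without saying whether they came from separate cultures, so p-values measure the spread between these libraries only, which may be technical.

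Epithelial cells hold together through cadherins, claudins and desmosomes, are filled with keratin filaments, and rest on a basement membrane to which integrins bind them. Mesenchymal cells such as fibroblasts lack these junctions, secrete fibrillar collagens and the enzymes that crosslink them, and often carry a contractile actin apparatus. Transcription factors of the Zeb, Snail and Twist families repress epithelial genes, while Grhl2, Ovol and the splicing factors Esrp1 and Esrp2 maintain them. Tumours of the mammary gland may hold cells of both kinds, and the cells exchange growth factors, cytokines and matrix, whose receptors are often on the other cell type.

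The 4 monoculture libraries were alike in their FPKM sums (390290 to 413924) and in their number of genes of at least 1 FPKM (10682 to 10847). Their depth in reads is unknown. The difference between libraries of a fraction was taken over 9425 genes of at least 5 FPKM in 2 or more of the 8 libraries. Its median on the log2(FPKM + 1) scale was 0.038 in EpCAM+ and 0.0474 in EpCAM-. Over all described genes, the median standard error of a log2 fold change was 0.047. Values were compared with limma on that scale over all 8 libraries, and a gene was called at a Benjamini-Hochberg adjusted p under 0.05 with a change of at least 2-fold. An exact permutation test of 2 libraries against 2 cannot go below p = 0.333. Fold changes on this scale understate the change of genes at low FPKM. In what follows, a number alone in parentheses after the levels of a gene is its log2 fold change of EpCAM+ over EpCAM-, and 2 levels of a fraction are those of its libraries 1 and 2. Of all genes, 7400 were listed at 0 in all 4 libraries. The gene lists below name 953 genes, of which 708 were described. The counts are of described genes, and 268 of these reached the limit in 1 fraction only and so had to differ. In every list below, a described gene under 1 FPKM in both libraries of 1 fraction passed through the other fraction alone. Its direction was thereby fixed. Genes just inside the limit for description include Ccdc173, at 1.09 and 1.002 FPKM in EpCAM+ and 0.435 and 0.3996 FPKM in EpCAM-, and genes just outside it include Usp44, at 0.998 and 1.12 FPKM in EpCAM+ and 0 and 0 FPKM in EpCAM-.

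Most genes differed between the fractions, and more than 1 in 4 did so by 2-fold or more. At 2-fold, 3363 of the 11647 described genes (28.9%) were called, of which 1853 (15.9%) were higher and 1510 (13.0%) lower in EpCAM+ cells. Each count of a gene list below is to be read beside these shares. Scaling by the median of ratios gave 1442 higher and 1807 lower, since it moved the median log2 fold change of described genes from 0.23 to 0.013. With no minimum change, 10296 genes (88.4%) were called, 6473 higher (55.6%) and 3823 lower (32.8%), or 50.5% higher among calls under the median of ratios against 62.9% here. In 10908 genes (93.7%) the 2 fractions did not overlap. In both directions some changes were large: 164 genes were higher and 206 lower by at least 4 on the log2 scale, and 5 and 11 by at least 8. The genes called higher made up 19.5% and 19.4% of all FPKM in the EpCAM+ libraries and 4.68% and 4.69% in the EpCAM- libraries. The genes called lower made up 3.90% and 3.91% in EpCAM+ and 22.7% and 22.8% in EpCAM-. The libraries of a fraction were alike in these shares. In such bulk libraries, fewer cells of a kind and less RNA per cell cannot be told apart.

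**Figure D1:**
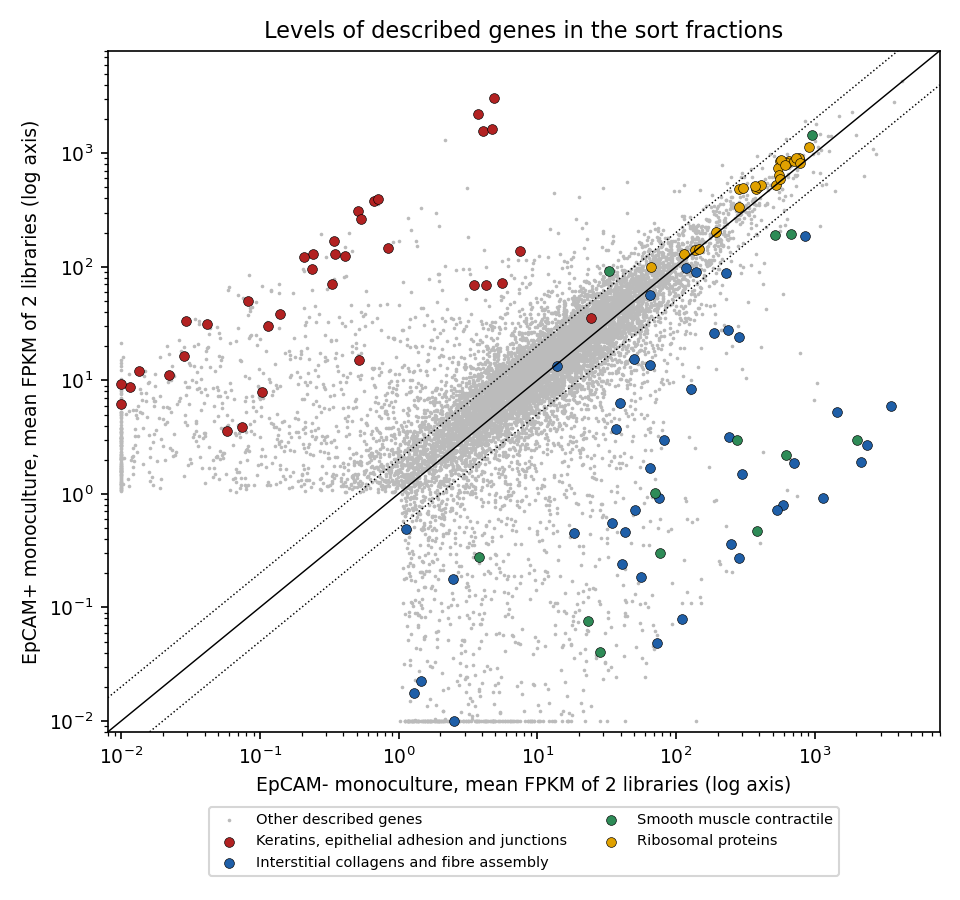
Mean FPKM of each described gene in the EpCAM- (horizontal, log axis) and EpCAM+ (vertical, log axis) monoculture libraries, 2 libraries each; means below 0.01 FPKM are drawn at 0.01, the solid line marks equal levels and the dotted lines 2-fold differences. Keratin and junction genes other than Pkp2 lie above the lines, most collagen, fibre assembly and contractile genes below them, and the 27 ribosomal protein genes between them.

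Epcam itself separated the fractions, and most markers of cell types other than epithelium and fibroblasts were below the limit for description. Epcam (mm10 chromosome 17, 87635979 to 87651129) stood at 129 and 133 FPKM in EpCAM+ and 0.225 and 0.2598 FPKM in EpCAM- (log2 fold change 6.73, adjusted p = 1.07e-12, limma). The pan-leukocyte gene Ptprc was at 0 in all 4 libraries, and Pecam1, which marks endothelium, did not pass 0.0237 FPKM. Of the 16 leukocyte markers, 1 was described, the pattern recognition receptor Cd14, at 13.3 and 12.4 FPKM in EpCAM+ and 4.78 and 5.26 FPKM in EpCAM- (1.2, and 0.98 under scaling by the median of ratios). Of 11 endothelial markers 1 was described, and none of 8 erythroid markers. Skeletal muscle, neural and adipocyte markers had 2 described genes each, and among these the fat cell regulator Pparg reached 14.9 and 15.4 FPKM in EpCAM- against 3.42 and 3.98 FPKM in EpCAM+. Mammary epithelial markers, which include Epcam itself, were higher in EpCAM+ at 12 of the 13 described genes and lower at 1, with a log2 fold change of -1.09. Fibroblast and pericyte markers were lower at 12 of 14 and higher at 1, with a log2 fold change of 2.84. Some of those lower, such as Pdgfrb and Eng, were described through EpCAM- alone, which fixed their direction. The basal markers Krt5 and Trp63 and the milk protein genes Csn2 and Wap were below the limit in both fractions, as were Esr1 and Pgr, the oestrogen and progesterone receptor genes. The 6 listed genes of the Y chromosome were at 0, and Xist, which silences an X chromosome in female cells, stood at 19.2 and 18.9 FPKM in EpCAM+ and 14.8 and 16.6 FPKM in EpCAM-.

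Nearly all measured genes of epithelial adhesion were far higher in EpCAM+ cells than in EpCAM- cells. Of 26 described genes, 25 were higher in EpCAM+ and none lower, with a median log2 fold change of 4.44 beside 0.23 over all described genes. The list includes Epcam, on which the cells were sorted. It also includes genes described through EpCAM+ alone, such as Cdh1, Cldn3 and Cldn4, whose direction was thereby fixed. Cdh1 (mm10 chromosome 8, 106603351 to 106670246), which encodes E-cadherin, stood at 378 and 378 FPKM in EpCAM+ and 0.6302 and 0.6898 FPKM in EpCAM- (log2 fold change 7.83 with SE 0.039, limma adjusted p = 1.07e-12). Cldn4, a claudin of tight junctions, stood at 311 and 306 FPKM against 0.468 and 0.553 FPKM, and Cldn3 at 171 and 169.9 FPKM against 0.341 and 0.341 FPKM. The desmosomal genes Dsp and Dsg2 were higher by 5.73 and 6.48 on the log2 scale. Pkp2, a desmosomal plakophilin, was the exception, at 35.6 and 34.9 FPKM in EpCAM+ and 24 and 24.8 FPKM in EpCAM- (0.51, below 2-fold). Cdh2, which encodes N-cadherin and is typical of mesenchymal cells, was also higher in EpCAM+, at 77.3 and 76.9 FPKM against 31.9 and 31.8 FPKM (log2 fold change 1.25 with SE 0.022, limma adjusted p = 4.93e-10). Cdh11, the cadherin of fibroblasts and bone cells, was the reverse, at 0.328 and 0.385 FPKM in EpCAM+ and 56.7 and 58.3 FPKM in EpCAM- (-5.43).

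The promoter of Epcam is shown because its gene defines the sort and because the 6-letter E-box CACCTG, which Zeb and Snail factors can bind, is known from promoters of epithelial genes. The 250 bases before the start are from RefSeq (GRCm38.p6, plus strand, chr17:87635729-87635978), with the 2 E-box matches on either strand, 187 and 19 bases before the start, in capitals:
Epcam: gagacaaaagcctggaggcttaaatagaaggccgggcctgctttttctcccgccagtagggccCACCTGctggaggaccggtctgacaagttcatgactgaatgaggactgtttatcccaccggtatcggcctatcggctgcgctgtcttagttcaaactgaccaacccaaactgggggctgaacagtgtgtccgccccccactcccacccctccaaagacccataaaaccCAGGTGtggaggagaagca
Of the described genes, 8757 had such a sequence in the table, and 14.3% of these held CACCTG on either strand. Of the epithelial adhesion genes, 13 had a sequence and 6 (46.2%) held it. Of the integrins, a list divided between the fractions, 12 had a sequence and 5 (41.7%) held it. A match is a run of letters, and binding was not measured.

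Keratin genes were high in EpCAM+ cells and low in EpCAM- cells. All 10 described keratins were higher in EpCAM+, with a median of 7.65, and they summed to 2.26% and 2.28% of all FPKM in EpCAM+ against 0.00561% and 0.00589% in EpCAM-. Krt8 (mm10 chromosome 15, 101996698 to 102004482) stood at 3019 and 3068 FPKM in EpCAM+ and 4.72 and 5.11 FPKM in EpCAM- (log2 fold change 9.01 with SE 0.057, limma adjusted p = 2.92e-12). Its partner in simple epithelium, Krt18, stood at 2203 and 2234 FPKM and 3.62 and 3.92 FPKM (8.86). Krt14, a keratin of basal cells, was also high in EpCAM+, at 263 and 269 FPKM against 0.463 and 0.6001 FPKM, although Krt5, with which it pairs, was at 0 and 0.0395 FPKM in the same libraries. Krt16, induced in stressed or fast growing epithelium, stood at 390.2 and 399.9 FPKM against 0.781 and 0.647 FPKM. Krt14 and Krt16 were thus described through EpCAM+ alone, which fixed their direction. Vim, the vimentin filament of mesenchymal cells, was present in both fractions, at 1097 and 1095 FPKM in EpCAM+ and 2664 and 2592 FPKM in EpCAM- (log2 fold change -1.26 with SE 0.018, limma adjusted p = 1.45e-10). EpCAM+ cells thus held keratin and vimentin RNA at levels of the same order, while EpCAM- cells held vimentin without keratin at comparable levels.

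Serine proteases of the epithelial surface and their inhibitors were also higher in EpCAM+. All 6 described genes of this list were higher in EpCAM+ (median 4.92). In the EpCAM- libraries the whole list summed to 1.065 and 1.456 FPKM, with Spint2 alone at 0.626 and 0.799 FPKM. All 6 were therefore described through EpCAM+ alone, which fixed their direction. St14, the membrane protease matriptase, stood at 61.2 and 62.5 FPKM in EpCAM+ and 0.0621 and 0.0556 FPKM in EpCAM-, and its activator partner Prss8 at 15.1 and 15.2 FPKM and 0.0155 and 0.0899 FPKM. Spint1 and Spint2, the Kunitz inhibitors of matriptase, were higher by 6.26 and 7.7 on the log2 scale, with Spint2 at 360.3 and 350.0 FPKM in EpCAM+. Protease and inhibitor RNA were therefore both found in the EpCAM+ libraries and both near 0 in EpCAM-.

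Regulators of epithelial identity were higher in EpCAM+ at 15 of 16 described genes (median 2.88). The whole list summed to 47.1 and 46.4 FPKM in the EpCAM- libraries, nearly all of it from Klf4. Most of the 15 were therefore described through EpCAM+ alone, which fixed their direction. Esrp1, which directs epithelial splicing, stood at 43.1 and 44.03 FPKM in EpCAM+ and 0.0395 and 0.131 FPKM in EpCAM- (log2 fold change 5.36 with SE 0.05, limma adjusted p = 1.74e-11). Grhl2, a transcription factor that maintains Cdh1 and claudins, stood at 10.2 and 9.77 FPKM against 0 and 0.00533 FPKM (3.45). Sox2, best known from stem cells, was higher as well, at 30.0 and 28.6 FPKM against 0.0767 and 0.0215 FPKM (4.85). The gene that went the other way was Klf4, at 5.42 and 5.42 FPKM in EpCAM+ and 43.8 and 42.8 FPKM in EpCAM- (log2 fold change -2.79 with SE 0.044, limma adjusted p = 2.52e-10). Klf4 was thus high in the fraction in which Grhl2 was near 0.

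Among mesenchymal transcription factors, 14 of 25 described genes were lower in EpCAM+ and 5 higher (median -1.38). The homeobox factors Prrx1 and Prrx2 of limb and connective tissue showed the widest gap, with Prrx1 at 0.06404 and 0.0587 FPKM in EpCAM+ and 69.97 and 70.7 FPKM in EpCAM- (log2 fold change -6.07 with SE 0.039, limma adjusted p = 2.93e-12). Twist1 stood at 0.491 and 0.423 FPKM and 38.05 and 37.1 FPKM (-4.73), and Snai2, which encodes Slug, at 1.91 and 1.86 FPKM and 40.9 and 40.9 FPKM (-3.86). Zeb1 and Zeb2 differed less and remained above 1 FPKM in EpCAM+: Zeb1 stood at 2.96 and 3.25 FPKM in EpCAM+ and 10.9 and 11.7 FPKM in EpCAM- (log2 fold change -1.59 with SE 0.06, limma adjusted p = 4.46e-08). Zeb2 stood at 3.58 and 3.36 FPKM against 10.4 and 10.9 FPKM (-1.38). Against the rest of the list, Scx, a factor of tendon cells, was higher in EpCAM+ at 24.1 and 22.7 FPKM against 0.978 and 0.889 FPKM (3.66), and Foxd1 at 10.3 and 10.2 FPKM against 0.435 and 0.615 FPKM (2.89). The other genes called higher were Mkx, Runx1 and Runx2, and the last 2, at 1.04 and 1.05, were below 2-fold under each of the 3 scalings between libraries, and Runx1 without the first EpCAM- library (0.98).

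**Figure D2:**
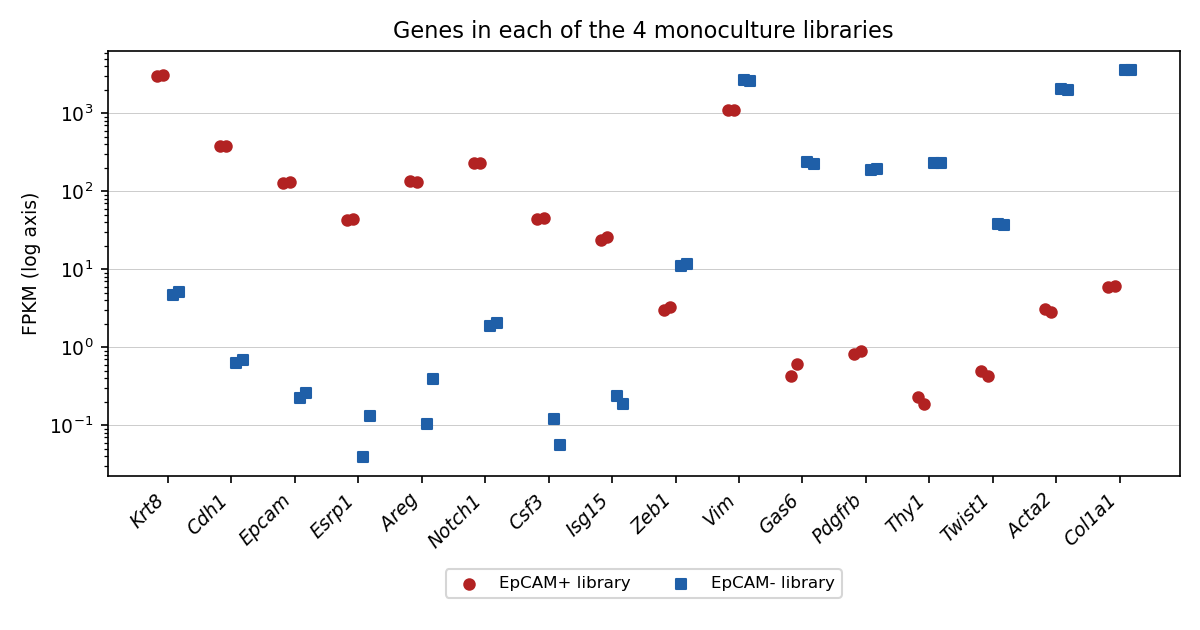
FPKM (log axis) of 16 genes in each monoculture library, 2 EpCAM+ libraries (circles) and 2 EpCAM- libraries (squares) per gene. Genes from Krt8 to Isg15 are higher in EpCAM+ and those from Zeb1 to Col1a1 higher in EpCAM-.

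Fibrillar collagen genes were abundant in EpCAM- cells and low in EpCAM+ cells. Of 14 described interstitial collagens, 12 were lower in EpCAM+ and none higher (median -4.01), and together they held 2.15% and 2.20% of FPKM in EpCAM- against 0.0609% and 0.062% in EpCAM+. Col1a1 (mm10 chromosome 11, 94936224 to 94953042), the major chain of type I collagen, stood at 5.94 and 6.05 FPKM in EpCAM+ and 3573 and 3558 FPKM in EpCAM- (log2 fold change -8.99 with SE 0.018, limma adjusted p = 2.80e-14). Its partner Col1a2 stood at 2.56 and 2.79 FPKM and 2391 and 2393 FPKM (-9.35), and Col3a1 at 0.834 and 0.752 FPKM and 595 and 593 FPKM (-8.38). Not every collagen followed them. Col6a1, a chain of the beaded filaments of type VI collagen, stood at 86.1 and 89.6 FPKM in EpCAM+ and 229 and 231 FPKM in EpCAM- (-1.38), and Col6a2 at 88.96 and 90.8 FPKM and 138 and 141 FPKM (-0.63, not called), while Col6a3 was at 0.252 and 0.289 FPKM in EpCAM+ and 274 and 297 FPKM in EpCAM- (-7.82). EpCAM+ cells therefore held RNA of 2 chains of type VI collagen and almost none of the third. Col5a3 was not called, at 13.4 and 13.3 FPKM and 14.2 and 13.7 FPKM.

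Genes that process, space and crosslink collagen and elastic fibres were lower in EpCAM+ at 25 of 28 described genes and higher at none (median -4.5). Bgn (mm10 chromosome X, 73483602 to 73495933), the proteoglycan biglycan, stood at 1.95 and 1.85 FPKM in EpCAM+ and 2172 and 2158 FPKM in EpCAM- (log2 fold change -9.54 with SE 0.03, limma adjusted p = 1.52e-13). Lox, the crosslinking enzyme lysyl oxidase, stood at 0.874 and 0.951 FPKM and 1137 and 1157 FPKM (-9.23), and Pcolce, which helps to trim procollagen, at 1.805 and 1.96 FPKM and 722 and 694 FPKM (-7.94). Lox was described through EpCAM- alone, which fixed its direction. The collagen chaperone Serpinh1 differed less, at 188 and 185 FPKM in EpCAM+ and 856 and 839.9 FPKM in EpCAM- (-2.18). The 3 genes that were not called were Fbln1, Bmp1 and Plod2; Bmp1, a procollagen protease, stood at 98.1 and 97.5 FPKM and 119 and 119 FPKM. RNA of this protease and of the chaperone was therefore found in EpCAM+ cells at levels at which Bgn, Lox and Pcolce were not.

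Of the matricellular and adhesive glycoproteins, 14 of 18 were lower and 2 higher in EpCAM+ (median -2.0). Thbs2, a thrombospondin of connective tissue, stood at 0.3498 and 0.382 FPKM in EpCAM+ and 396 and 407 FPKM in EpCAM- (-8.2). Sparc, which binds collagen, was the gene with the least alike EpCAM+ libraries among these, at 6.11 and 12.8 FPKM, against 1052 and 1043 FPKM in EpCAM- (log2 fold change -6.72 with SE 0.34, limma adjusted p = 3.00e-07). Mgp, matrix Gla protein, was listed at 0 in both EpCAM+ libraries and at 142 and 138 FPKM in EpCAM-. The genes higher in EpCAM+ were Spp1, which encodes osteopontin, at 443 and 453 FPKM against 13.02 and 13.6 FPKM (log2 fold change 4.97 with SE 0.024, limma adjusted p = 1.07e-12), and Tnc, tenascin-C, at 469 and 470.1 FPKM against 95.5 and 98.2 FPKM (2.27). Fibronectin (Fn1) was abundant in both, at 1279 and 1289 FPKM in EpCAM+ and 961 and 1048 FPKM in EpCAM- (0.35, below 2-fold).

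Basement membrane genes were divided: 10 of 22 were higher and 9 lower in EpCAM+ (median -0.51). Itgb4, the hemidesmosome integrin of epithelia, stood at 80.1 and 80.9 FPKM in EpCAM+ and 0.379 and 0.432 FPKM in EpCAM- (log2 fold change 5.86 with SE 0.042, limma adjusted p = 4.55e-12). The laminin chains Lama5 and Lamb3 were higher by 4.73 and 3.77 on the log2 scale, and the proteoglycans Agrn and Col18a1 by 4.81 and 4.09. Nidogen and perlecan went the other way: Nid1 stood at 2.46 and 2.25 FPKM in EpCAM+ and 415 and 436 FPKM in EpCAM- (log2 fold change -6.99 with SE 0.041, limma adjusted p = 2.06e-12), and Hspg2 at 0.842 and 0.901 FPKM and 114 and 124 FPKM (-6.0). Col4a1 and Col4a2, the common type IV collagen chains, were lower, with log2 fold changes of -3.35 and -3.35. Lama5 and Agrn were thus higher in the fraction in which Nid1, Hspg2 and Col4a1 were lower.

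Integrins, the receptors of matrix, also divided, with 6 of 14 higher and 7 lower in EpCAM+ (median -0.96). Itga3, the alpha chain of a laminin receptor, stood at 181 and 183 FPKM in EpCAM+ and 3.27 and 3.08 FPKM in EpCAM- (log2 fold change 5.45 with SE 0.041, limma adjusted p = 6.47e-12). Itga11, the alpha chain of a collagen receptor of fibroblasts, stood at 0.125 and 0.0886 FPKM and 54.8 and 56.04 FPKM (-5.67), and Itga5 of the fibronectin receptor at 8.02 and 8.24 FPKM and 133 and 134 FPKM (-3.88). Itgb3, which pairs with the alpha V chain, was higher in EpCAM+, at 38.7 and 38.8 FPKM against 3.23 and 3.43 FPKM (3.2). Itgb1, the beta chain that pairs with Itga3, Itga5 and Itga11, was high in both fractions, at 392 and 389.5 FPKM and 590.2 and 585 FPKM.

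Matrix proteases and their inhibitors were lower in EpCAM+ at 12 of 23 described genes and higher at 8 (median -1.32). Mmp2, gelatinase A, stood at 0.131 and 0.03796 FPKM in EpCAM+ and 44.3 and 45.1 FPKM in EpCAM- (-5.4), whereas the membrane protease Mmp15 stood at 25.6 and 25.3 FPKM and 0.469 and 0.505 FPKM (4.15). Plau, urokinase, stood at 553 and 557 FPKM in EpCAM+ and 45.2 and 43.8 FPKM in EpCAM- (log2 fold change 3.61 with SE 0.023, limma adjusted p = 2.91e-12), and its receptor Plaur at 158 and 163 FPKM and 57.4 and 55.1 FPKM (1.5). Serpinf1, a secreted inhibitor of vessel growth, stood at 0.863 and 1.03 FPKM and 749.8 and 734 FPKM (-8.58).

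The contractile genes of smooth muscle, which myofibroblasts also express, were lower in EpCAM+ at 11 of 13 described genes and higher at 1 (median -4.81). Acta2 (mm10 chromosome 19, 34241090 to 34255590), smooth muscle actin, stood at 3.05 and 2.86 FPKM in EpCAM+ and 2043 and 2004 FPKM in EpCAM- (log2 fold change -9.0 with SE 0.029, limma adjusted p = 1.52e-13). Myl9, a myosin light chain, stood at 0.477 and 0.456 FPKM and 393 and 383 FPKM (-8.05), and Tagln at 2.33 and 2.04 FPKM and 647 and 609 FPKM (-7.62). Myl9 was described through EpCAM- alone, which fixed its direction. The gene called higher was Smtn, at 91.5 and 92.5 FPKM in EpCAM+ and 31.7 and 33.7 FPKM in EpCAM- (1.47). Tpm1, a tropomyosin found in many cell types, was abundant in both, at 1444 and 1445 FPKM and 971 and 944 FPKM (0.59), in contrast to Tpm2 at 2.86 and 3.11 FPKM and 278 and 273 FPKM (-6.12).

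The promoter of Myl9 is shown because contractile genes as a group are known targets of serum response factor, whose CArG box it holds. The 250 bases before its start (RefSeq, GRCm38.p6, plus strand, chr2:156775214-156775463) are given with the match, 161 bases before the start, in capitals:
Myl9: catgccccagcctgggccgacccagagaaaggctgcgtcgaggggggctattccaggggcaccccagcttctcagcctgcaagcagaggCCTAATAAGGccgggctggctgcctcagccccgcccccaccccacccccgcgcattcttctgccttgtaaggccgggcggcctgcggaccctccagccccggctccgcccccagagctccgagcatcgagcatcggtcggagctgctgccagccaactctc
Of the described genes with a sequence, 1.18% held a CArG box on either strand, and of the contractile genes 2 of 11 (18.2%) did.

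Growth factor genes were divided almost evenly, 11 of 26 higher and 10 lower in EpCAM+ (median 0.37). Ligands of the EGF receptor were found in both fractions. Areg, amphiregulin, stood at 134 and 129 FPKM in EpCAM+ and 0.102 and 0.397 FPKM in EpCAM- (log2 fold change 6.74 with SE 0.12, limma adjusted p = 4.47e-10), and Hbegf at 201 and 199 FPKM and 13.9 and 14.3 FPKM (3.73). Ereg was the reverse, at 0 and 0.00817 FPKM in EpCAM+ and 8.86 and 8.97 FPKM in EpCAM- (-3.3). Pdgfb, a ligand of platelet-derived growth factor receptors, stood at 34.7 and 34.4 FPKM in EpCAM+ and 0.0442 and 0.0245 FPKM in EpCAM- (log2 fold change 5.1 with SE 0.05, limma adjusted p = 2.34e-11), and Vegfc, which drives growth of lymph vessels, was higher by 4.16. EpCAM- cells held Gas6, a ligand of Axl, at 236 and 226 FPKM against 0.432 and 0.614 FPKM (log2 fold change -7.25 with SE 0.056, limma adjusted p = 7.13e-12), and Fgf7, the keratinocyte growth factor, at 42.1 and 42.2 FPKM against 0.0887 and 0.0524 FPKM (-5.33). Hgf, the ligand of Met, was low, at 0.174 and 0.2198 FPKM in EpCAM+ and 1.41 and 1.67 FPKM in EpCAM-.

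Receptor tyrosine kinases were higher in EpCAM+ at 13 of 28 described genes and lower at 7 (median 0.70). Pdgfrb, the receptor of Pdgfb, was in the other fraction from its ligand, at 0.828 and 0.893 FPKM in EpCAM+ and 188 and 190.4 FPKM in EpCAM- (log2 fold change -6.68 with SE 0.039, limma adjusted p = 2.06e-12), and Pdgfra stood at 0.2695 and 0.193 FPKM and 25.3 and 26.5 FPKM (-4.45). Egfr was in the same fraction as Areg, at 35.2 and 35.8 FPKM in EpCAM+ and 8.26 and 8.45 FPKM in EpCAM- (log2 fold change 1.96 with SE 0.028, limma adjusted p = 1.53e-10). Axl was higher in the same fraction as Gas6, at 33.6 and 21.9 FPKM in EpCAM+ and 212 and 214 FPKM in EpCAM- (-2.92). Met stood at 28.8 and 28.9 FPKM and 8.61 and 8.93 FPKM (1.61), and Erbb3 at 6.77 and 6.42 FPKM and 0.0108 and 0.0417 FPKM (2.89). Ddr2, a receptor of fibrillar collagen, stood at 0.0869 and 0.0544 FPKM and 66.3 and 70.2 FPKM (-6.01). Its relative Ddr1 was not called, at 40.6 and 42.02 FPKM and 42.5 and 43.01 FPKM. Erbb2, which encodes HER2, differed by less than 2-fold, at 14.3 and 14.3 FPKM in EpCAM+ and 9.58 and 9.83 FPKM in EpCAM- (log2 fold change 0.52 with SE 0.037, limma adjusted p = 2.59e-06). The ephrin receptor Epha4 was among the highest in EpCAM+, at 33.6 and 33.5 FPKM against 1.73 and 1.74 FPKM (3.66). The vascular endothelial growth factor receptors Flt1 and Flt4 were higher in EpCAM+ by 3.05 and 3.63.

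Of the Wnt pathway, 10 of 25 described genes were higher and 6 lower in EpCAM+ (median 0.07, and -0.16 under scaling by the median of ratios), and the fractions held different ligands. Wnt7b stood at 52.6 and 52.8 FPKM in EpCAM+ and 0.0921 and 0.0582 FPKM in EpCAM- (log2 fold change 5.64 with SE 0.046, limma adjusted p = 9.00e-12), and Wnt5b at 45.9 and 47.4 FPKM and 0.812 and 0.836 FPKM (4.71). Wnt5a was the reverse, at 0.153 and 0.0959 FPKM and 22.5 and 24.2 FPKM (-4.44). Lgr6, a receptor of R-spondins, stood at 35.2 and 34.5 FPKM in EpCAM+ and 1.03 and 1.395 FPKM in EpCAM- (4.02), and the R-spondin Rspo2 was listed at 0 in both EpCAM+ libraries and at 13.3 and 13.3 FPKM in EpCAM-. Ligand and receptor of this pair were thus called in opposite fractions. Axin2 and Lef1, usual targets of canonical Wnt signalling, were below the limit in both fractions.

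Notch genes were higher in EpCAM+ at 7 of 11 described genes and lower at 1 (median 1.57). Notch1 stood at 229 and 229 FPKM in EpCAM+ and 1.89 and 2.02 FPKM in EpCAM- (log2 fold change 6.28 with SE 0.033, limma adjusted p = 1.38e-12), and its ligand Jag1 at 118 and 117 FPKM and 17.6 and 17.5 FPKM (2.68). The Notch target Hey1 stood at 151 and 151 FPKM and 1.44 and 1.297 FPKM (6.01), and Nrarp, a target that feeds back on the receptor, at 335 and 331 FPKM and 1.4 and 1.48 FPKM (log2 fold change 7.1 with SE 0.051, limma adjusted p = 4.64e-12). Notch1, Jag1, Hey1 and Nrarp were thus all higher in EpCAM+, while 3 of the 11 described genes were not called. Lfng, an enzyme that modifies Notch receptors, was lower, at 1.83 and 1.897 FPKM in EpCAM+ and 11.1 and 10.1 FPKM in EpCAM- (-2.01). The letters GTGGGAA, the core of the RBPJ site, were found in the 250 bases before the start of 2 of 9 genes of this list, beside 5.25% of described genes.

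The TGF-beta, BMP and activin list was lower in EpCAM+ at 13 of 32 described genes and higher at 3 (median -0.73). Fstl1, a secreted follistatin-like protein, stood at 1.03 and 1.15 FPKM in EpCAM+ and 636 and 640.1 FPKM in EpCAM- (log2 fold change -8.26 with SE 0.034, limma adjusted p = 4.76e-13), and Bmp4 at 0.378 and 0.446 FPKM and 31.7 and 31.8 FPKM (-4.54). The accessory receptor Eng, endoglin, stood at 0.326 and 0.291 FPKM and 75.2 and 75.6 FPKM (-5.87). Higher in EpCAM+ were the activin subunits Inhba, at 529 and 525 FPKM against 112 and 116 FPKM (log2 fold change 2.2 with SE 0.021, limma adjusted p = 2.01e-11), and Inhbb, and the receptor Tgfbr1. The ligands Tgfb1 and Tgfb2 were not called, at 0.72 and -0.96, the latter reaching -1.19 under scaling by the median of ratios. Of 7 described Hedgehog genes, 4 were lower and none higher in EpCAM+, among them Gas1, a coreceptor, at 0.604 and 0.394 FPKM against 75.9 and 73.5 FPKM (-5.66), and Gli2, listed at 0 in both EpCAM+ libraries and at 2.39 and 2.44 FPKM in EpCAM-. Bmp4, Eng, Gas1 and Gli2 were described through EpCAM- alone, which fixed their direction.

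Hox genes, which record position along the body axis, were lower in EpCAM+ at 20 of 25 described genes and higher at none (median -2.32; 1 higher with a pseudocount of 0.1 or 0.5). Hoxb9 stood at 0.0162 and 0.0125 FPKM in EpCAM+ and 20.9 and 20.6 FPKM in EpCAM- (log2 fold change -4.42 with SE 0.058, limma adjusted p = 9.95e-11), Hoxd8 at 0.0903 and 0.132 FPKM and 21.7 and 20.8 FPKM (-4.32), and Hoxc8 at 0.765 and 0.687 FPKM and 28.5 and 28.4 FPKM (-4.09). Genes of all 4 clusters were among those called. The whole list summed to 24.6 FPKM in each EpCAM+ library. Hoxb9, Hoxd8 and Hoxc8 were described through EpCAM- alone, which fixed their direction. EpCAM+ cells were not without Hox RNA: Hoxa5 stood there at 7.67 and 7.45 FPKM against 25.7 and 24.2 FPKM. Hoxa10 was above EpCAM-, at 1.79 and 2.13 FPKM against 0.789 and 0.661 FPKM. Its log2 fold change of 0.78 was under the 2-fold limit on the log2(FPKM + 1) scale, which understates changes at low FPKM. Imprinted genes were lower in EpCAM+ at 9 of 14 and higher at 3 (median -1.40). Grb10, an adaptor that restrains growth factor receptors, stood at 0.06704 and 0.05895 FPKM in EpCAM+ and 56.7 and 57.3 FPKM in EpCAM- (log2 fold change -5.77 with SE 0.039, limma adjusted p = 3.81e-12), and Ndn, necdin, at 0.02798 and 0.0205 FPKM and 38.2 and 35.2 FPKM (-5.2). Sgce was listed at 0 in both EpCAM+ libraries and at 42.4 and 43.9 FPKM in EpCAM-. Phlda2 was the mirror of this, listed at 0 in both EpCAM- libraries and at 11.3 and 13.2 FPKM in EpCAM+. Grb10, Ndn and Sgce were described through EpCAM- alone and Phlda2 through EpCAM+ alone, which fixed their directions.

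**Figure D3:**
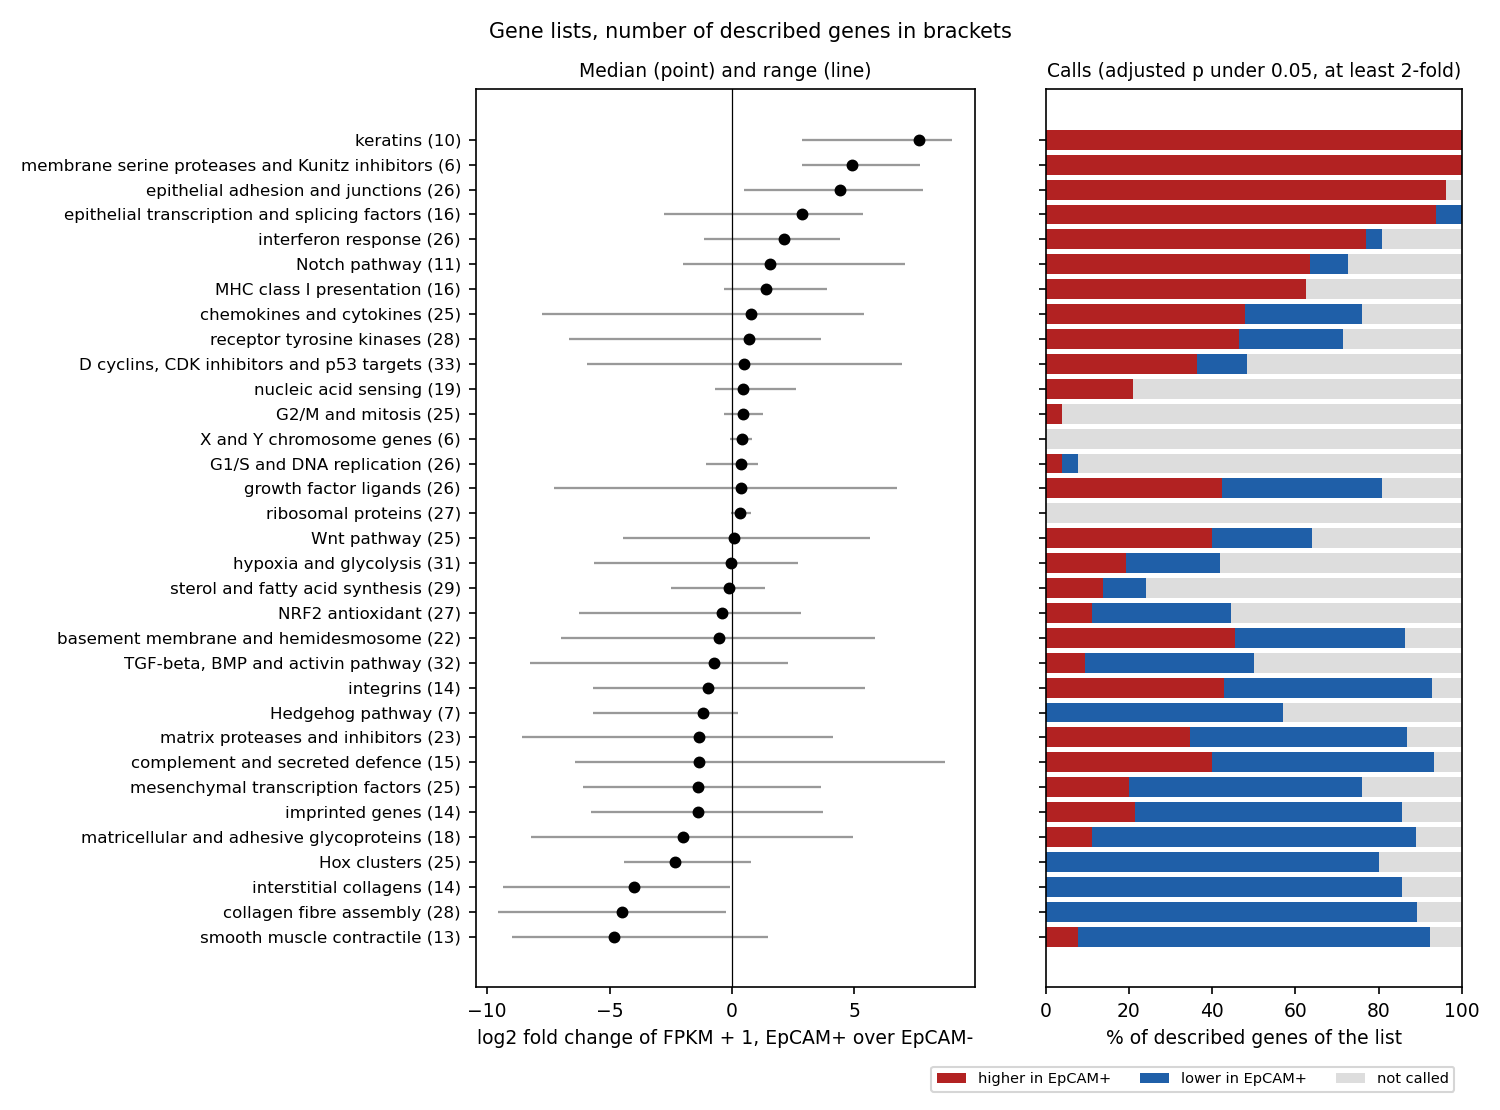
Left: median (point) and range (line) of the log2 fold change of FPKM + 1, EpCAM+ over EpCAM-, for each gene list other than the cell type markers, with the number of described genes in brackets. Right: share of the described genes of each list that were called higher or lower in EpCAM+; of the lists drawn, keratins lie highest with a median of 7.65 and contractile genes lowest with a median of -4.81.

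Interferon response genes were higher in EpCAM+ cells at 20 of 26 described genes and lower at 1 (median 2.12). Isg15 (mm10 chromosome 4, 156199424 to 156200818), a ubiquitin-like modifier, stood at 23.5 and 25.9 FPKM in EpCAM+ and 0.238 and 0.186 FPKM in EpCAM- (log2 fold change 4.4 with SE 0.05, limma adjusted p = 4.73e-11). Bst2, tetherin, which holds virus particles at the cell surface, stood at 123 and 126 FPKM and 10.5 and 10.1 FPKM (log2 fold change 3.48 with SE 0.025, limma adjusted p = 5.37e-12), and Usp18, which removes Isg15 from proteins, at 9.02 and 9.29 FPKM and 0.334 and 0.335 FPKM (2.93). Ifit2 was the gene called lower, at 2.43 and 2.696 FPKM in EpCAM+ and 6.59 and 6.86 FPKM in EpCAM- (-1.12). The levels of Isg15 and Usp18 were modest beside those of structural genes. Mx1 was near 0 in both fractions.

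The promoters of Isg15 and Bst2 are shown because the interferon-stimulated response element is known to control such genes. The 250 bases before the start (RefSeq, GRCm38.p6, minus strand, chr4:156200819-156201068 and chr8:71537473-71537722) are printed with the overlapping matches to its core (GAAA, any 2 bases and GAAA), searched on both strands, in capitals:
Isg15: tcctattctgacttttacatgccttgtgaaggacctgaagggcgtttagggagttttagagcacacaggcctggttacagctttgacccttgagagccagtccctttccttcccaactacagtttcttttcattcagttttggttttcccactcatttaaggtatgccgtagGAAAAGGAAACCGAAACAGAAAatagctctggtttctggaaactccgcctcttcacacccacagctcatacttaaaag
Bst2: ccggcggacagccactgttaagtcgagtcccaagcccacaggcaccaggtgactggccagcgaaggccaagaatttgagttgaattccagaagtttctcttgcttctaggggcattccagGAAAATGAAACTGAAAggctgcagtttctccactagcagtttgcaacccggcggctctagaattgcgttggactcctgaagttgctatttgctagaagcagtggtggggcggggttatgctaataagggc
Isg15 held 3 matches, 78, 72 and 66 bases before its start, and Bst2 held 2, at 130 and 124 bases. Of the interferon genes 22 had a sequence and 8 (36.4%) held the letters, beside 2.49% of the described genes and 4 of the 20 ribosomal protein genes with a sequence. The 4 motifs searched were named with the values of these genes known, and their shares are descriptions.

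Genes that sense foreign or misplaced nucleic acids were higher in EpCAM+ at 4 of 19 described genes and lower at none (median 0.46), or at 6 and 1 with a pseudocount of 0.1. Under each of the 3 scalings between libraries 3 were higher, and of all described genes 15.9% were. With no minimum change, 11 of the 19 were higher and 7 lower. Tlr3, the endosomal sensor of double-stranded RNA, stood at 13.2 and 14.1 FPKM in EpCAM+ and 1.32 and 1.45 FPKM in EpCAM- (log2 fold change 2.62 with SE 0.053, limma adjusted p = 9.83e-10), and the cytosolic sensors Ddx58 (RIG-I) and Ifih1 (MDA5) were higher by 2.08 and 1.98. MHC class I genes were higher at 10 of 16 and lower at none (median 1.40). H2-D1, a classical class I heavy chain, stood at 60.7 and 62.1 FPKM in EpCAM+ and 12.8 and 11.2 FPKM in EpCAM- (2.27); class I genes are near copies of each other, so reads may be split between them. Tapbp, tapasin, which loads peptides, stood at 97.4 and 101 FPKM and 15.8 and 16.9 FPKM (log2 fold change 2.53 with SE 0.039, limma adjusted p = 2.17e-10). B2m, the invariant light chain, was not called, at 280.4 and 289 FPKM in EpCAM+ and 341 and 333 FPKM in EpCAM- (-0.24), while H2-D1 was called higher.

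The fractions expressed different chemokines and cytokines, 12 of 25 higher and 7 lower in EpCAM+ (median 0.78). Csf3, the granulocyte factor, stood at 43.96 and 44.8 FPKM in EpCAM+ and 0.121 and 0.0554 FPKM in EpCAM- (log2 fold change 5.38 with SE 0.045, limma adjusted p = 1.10e-11), and Csf2, which also acts on granulocytes and macrophages, at 21.3 and 21.7 FPKM in EpCAM+ and was listed at 0 in both EpCAM- libraries. Csf1, the macrophage factor, was the reverse, at 19.3 and 19.7 FPKM in EpCAM+ and 410.1 and 412 FPKM in EpCAM- (-4.33). Lif, a cytokine of the interleukin 6 family, stood at 61.3 and 60.5 FPKM and 0.557 and 0.61 FPKM (5.29), and Tnf at 20.1 and 22.2 FPKM and 0.0404 and 0.0812 FPKM (4.38). Cxcl12, the ligand of Cxcr4 and typical of stroma, stood at 2.12 and 1.93 FPKM in EpCAM+ and 672 and 652 FPKM in EpCAM- (log2 fold change -7.78 with SE 0.034, limma adjusted p = 6.93e-13), and the monocyte chemokine Ccl7 at 0.141 and 0.184 FPKM and 97.1 and 89.8 FPKM (-6.34).

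Of 15 described complement and secreted defence genes, 6 were higher and 8 lower in EpCAM+ (median -1.34). Clu, the secreted chaperone clusterin, stood at 1323 and 1320.3 FPKM in EpCAM+ and 2.07 and 2.25 FPKM in EpCAM- (log2 fold change 8.71 with SE 0.029, limma adjusted p = 1.63e-13), and Wfdc2, a secreted protease inhibitor, at 192 and 195 FPKM and 0.223 and 0.333 FPKM (7.25). Ptx3, a pentraxin that opsonises microbes, was the reverse, at 0.541 and 0.581 FPKM in EpCAM+ and 133 and 127 FPKM in EpCAM- (-6.39). Among classical complement components, C1ra and C1s1 were lower in EpCAM+, with log2 fold changes of -3.29 and -2.22.

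Few cell cycle genes were called. Of 26 G1/S and replication genes, 1 was higher and 1 lower at 2-fold (median 0.38), and none was higher under any of the 3 scalings between libraries. Of 25 G2/M genes 1 was higher (median 0.45; 2 with a pseudocount of 0.1), beside a median of 0.23 over all described genes. Top2a, a topoisomerase of dividing cells, stood at 132 and 127 FPKM in EpCAM+ and 52.8 and 54.2 FPKM in EpCAM- (1.26), and Mki67 at 43.3 and 42.8 FPKM and 27.2 and 30.5 FPKM (0.56). The D cyclins were split. Ccnd1 stood at 789 and 784 FPKM in EpCAM+ and 213 and 217 FPKM in EpCAM- (log2 fold change 1.87 with SE 0.017, limma adjusted p = 1.54e-11), and Ccnd2 at 0.886 and 0.949 FPKM and 116 and 118 FPKM (log2 fold change -5.94 with SE 0.037, limma adjusted p = 2.75e-12). Of the 33 genes of D cyclins, inhibitors and p53 targets, 12 were higher and 4 lower (median 0.51). Perp, a p53 target that is also a desmosome protein, stood at 267 and 266 FPKM against 0.9802 and 1.36 FPKM (6.95). Trp53 stood at 132 and 131 FPKM in EpCAM+ and 47.8 and 46.6 FPKM in EpCAM- (1.46), while Cdkn2a was lower, at 33.7 and 32.1 FPKM and 76.95 and 76.2 FPKM (-1.19). Myc, whose EpCAM+ libraries lay further apart than most, stood at 48.6 and 40.3 FPKM and 21.7 and 21.2 FPKM (1.01, SE 0.1), and its change was below 2-fold without the first EpCAM+ library (0.88), without the second EpCAM- library (0.998) and under each scaling (0.77 to 0.94).

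Metabolic lists mostly lay near the middle of all genes, and of all described genes 15.9% were called higher and 13.0% lower. Of 31 hypoxia and glycolysis genes, 6 were higher and 7 lower in EpCAM+ (median -0.03, and 0.0019 without the first EpCAM- library). Adm, adrenomedullin, a hypoxia-induced peptide, stood at 0.627 and 0.564 FPKM in EpCAM+ and 76.8 and 77.6 FPKM in EpCAM- (log2 fold change -5.62 with SE 0.048, limma adjusted p = 1.21e-11), and Ldhb, which turns lactate to pyruvate, at 29.1 and 30.1 FPKM and 4.99 and 4.51 FPKM (2.41). Of 29 sterol and fatty acid genes, 4 were higher and 3 lower (median -0.10), with 1 called higher under scaling by the median of ratios, and among the genes called lower was Scd1, a fatty acid desaturase, at 18.1 and 17.8 FPKM and 58.9 and 58.8 FPKM (-1.66). Of 27 NRF2 antioxidant genes, 9 were lower and 3 higher (median -0.42). Nqo1, a quinone reductase, stood at 1.26 and 1.41 FPKM in EpCAM+ and 29.9 and 28.3 FPKM in EpCAM- (log2 fold change -3.69 with SE 0.05, limma adjusted p = 1.17e-10), and Gpx3, the secreted glutathione peroxidase, at 0.625 and 0.588 FPKM and 122 and 119 FPKM (-6.24). Gsr, glutathione reductase, was the reverse, at 137 and 133 FPKM against 18.96 and 17.7 FPKM (2.81). None of 27 ribosomal protein genes changed by 2-fold (median 0.33), although 23 passed limma's test with no minimum change.

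Several of the widest differences in FPKM were modest in fold. Hsp90ab1, a chaperone, stood at 1905 and 1938 FPKM in EpCAM+ and 852 and 857 FPKM in EpCAM- (log2 fold change 1.17 with SE 0.016, limma adjusted p = 1.21e-10), and Ptma, prothymosin, at 1323 and 1325 FPKM and 634 and 616 FPKM (1.08). Under scaling by the median of ratios both were below 2-fold, at 0.92 and 0.83. EpCAM- cells held more of Ftl1, a ferritin light chain, at 2816 and 2703 FPKM against 976 and 985 FPKM (log2 fold change -1.49 with SE 0.021, limma adjusted p = 1.49e-10), and of Lgals1, galectin-1, at 2312 and 2225 FPKM against 625 and 647 FPKM (-1.83). Ferritin light chain has many near copies in the genome, and the handling of shared reads is not given in the sources used here. Cd44 and Cd24a, surface markers often used to sort mammary cells, were both higher in EpCAM+: Cd44 stood at 119.6 and 120.1 FPKM against 42.9 and 45.7 FPKM (1.42), and Cd24a at 414 and 414 FPKM against 20.4 and 19.4 FPKM (4.31).

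The difference between the fractions was uneven along the genome. Over 8817 genes of at least 5 FPKM in a fraction, the median log2 fold changes of chromosomes 3, 4 and 11 were 0.55, 0.57 and 0.53, beside 0.18 over all other chromosomes together, which scaling by the median of ratios turned to -0.05. Chromosomes 3, 4 and 11 were singled out because their medians were the highest. The excess was spread along these chromosomes: of the windows of 10 Mb with at least 10 genes, the median exceeded 0.4 in 14 of 15 on chromosome 4, 12 of 13 on chromosome 11 and 9 of 12 on chromosome 3. Elsewhere it did so in 23 of 196 windows, most often on chromosome 7, at 5 of 14. Single genes of chromosome 11 varied widely, with quartiles of -0.071 and 0.95 over 744 genes, so the value of 1 gene says little about its chromosome. Erbb2, with a log2 fold change of 0.52, is 1 of them. Copy number was not measured here, and its part in these medians was not tested.

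**Figure D4:**
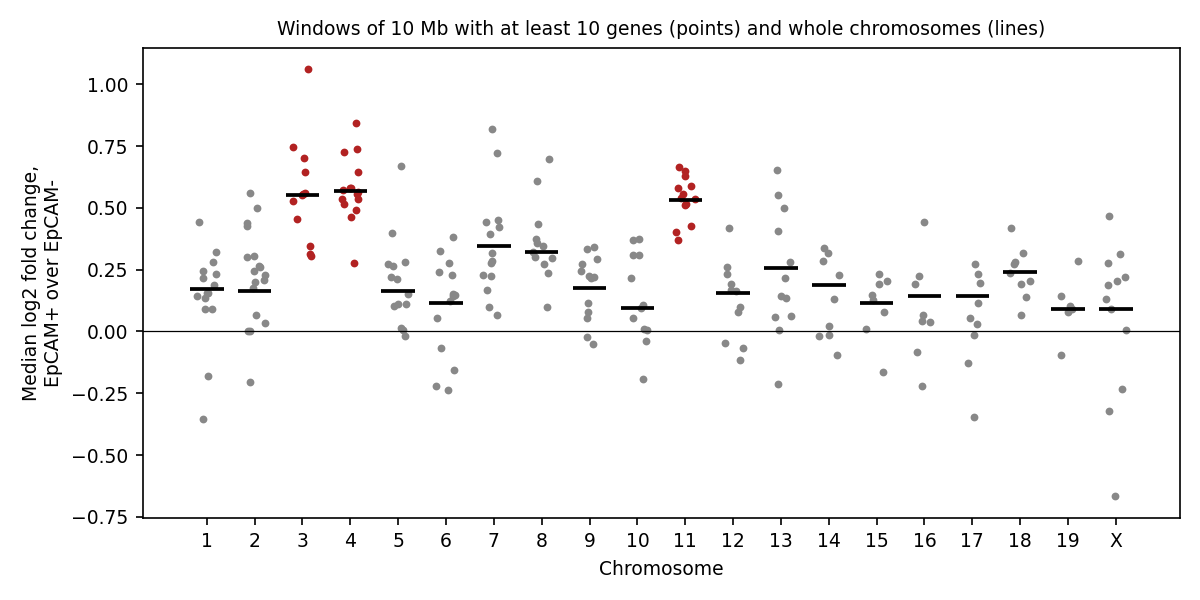
Median log2 fold change, EpCAM+ over EpCAM-, in windows of 10 Mb (points; chromosomes 3, 4 and 11 coloured) and over whole chromosomes (lines), for genes of at least 5 FPKM in a fraction. The windows of chromosomes 3, 4 and 11 all lie at or above 0.277, while windows elsewhere lie between -0.668 and 0.821. The medians of the other whole chromosomes lie between 0.09 and 0.34.

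The fractions were also sorted from coculture, which shows how much of the difference holds in the other condition. Of the 3363 genes called in monoculture, 2426 (72.1%) were called in the same direction in coculture, and these were 80.2% of the 3025 described genes (26.0%) called there. Between the cultures, the contrast itself differed by at least 2-fold at an adjusted p under 0.05 for 913 genes (7.84%, limma interaction), 261 of them (2.24%) shifted towards EpCAM+ in monoculture and 652 (5.6%) towards EpCAM-. With a pseudocount of 0.1 this count was 1467. Of the epithelial lists, 2 of 26 adhesion genes and 2 of 10 keratins shifted towards EpCAM- and none towards EpCAM+. Of the 16 epithelial transcription and splicing factors, 4 shifted towards EpCAM- and 1 towards EpCAM+.

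Of the interferon genes, 12 of 26 shifted towards EpCAM+ and none the other way, with a median of 2.12 in monoculture and 0.56 in coculture. Bst2, at a mean of 125 FPKM in EpCAM+ and 10.3 FPKM in EpCAM- of monoculture, was at 397 FPKM and 334 FPKM in coculture (difference of the contrasts 3.23, adjusted p = 1.75e-09, limma). Usp18, at 9.16 FPKM and 0.335 FPKM in monoculture, was at 31.96 FPKM and 41.6 FPKM in coculture (3.3). Both genes were higher in coculture than in monoculture in each fraction, and the gap was wider in EpCAM-. Isg15 kept its direction, at 24.7 FPKM and 0.212 FPKM in monoculture and 128 FPKM and 6.39 FPKM in coculture.

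Shifts towards EpCAM- included many collagen, fibre assembly and contractile genes. Of the interstitial collagens 8 of 14, of the fibre assembly genes 12 of 28 and of the contractile genes 9 of 13 shifted that way, while 2, 1 and 1 of them shifted towards EpCAM+. The 10 genes of at least 200 FPKM in EpCAM- with the lowest relative level in EpCAM+ stood there at 0.0796% to 0.126% of their EpCAM- level in monoculture, and the same 10 at 1.38% to 1.94% in coculture. For Col1a1 the means were 5.99 FPKM and 3566 FPKM in monoculture and 72.1 FPKM and 4193 FPKM in coculture. The share of these 10 genes was thus higher in coculture. They were chosen by their low share in monoculture, which in part favours a higher share in coculture. The part of EpCAM- cells left in the EpCAM+ fraction was not tested. In the other direction, the 10 genes of at least 200 FPKM in EpCAM+ with the lowest relative level in EpCAM- stood there at 0.162% to 0.287% in monoculture and 0.162% to 0.436% in coculture. This set was likewise chosen by its monoculture share.

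**Figure D5:**
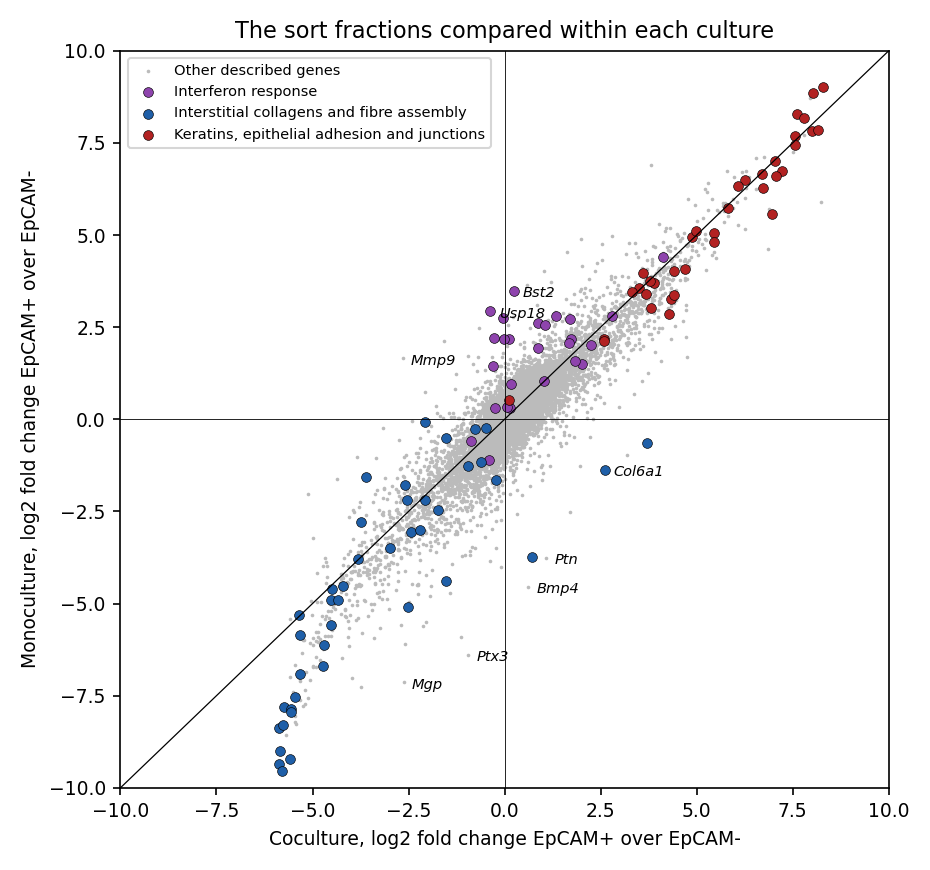
Log2 fold change, EpCAM+ over EpCAM-, of each described gene in coculture (horizontal) and monoculture (vertical), with 3 groups of genes coloured and the diagonal of equal values. Of the keratin and junction genes, 2 of 10 and 2 of 26 were called as shifted below the diagonal, 12 of 26 interferon genes lie at least 1 above it, and many collagen and fibre assembly genes lie below it.

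In other genes that shifted towards EpCAM-, the EpCAM- level differed between the cultures. Ptx3 stood at 0.561 FPKM in EpCAM+ and 130.3 FPKM in EpCAM- of monoculture, and at 0.546 FPKM and 1.98 FPKM of coculture (-5.44, adjusted p = 6.05e-09, limma). Bmp4 stood at 0.412 FPKM and 31.8 FPKM in monoculture and 0.656 FPKM and 0.0816 FPKM in coculture (-5.15), and Ly6a, which encodes Sca-1, at 0.467 FPKM and 87.1 FPKM and at 1.32 FPKM and 4.09 FPKM (-4.78). All 3 were high in monoculture EpCAM- cells and low in the other 3 groups. Mgp followed them, at 0 FPKM and 139.9 FPKM in monoculture and 0.18 FPKM and 6.297 FPKM in coculture (-4.51).

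Only 9 genes were called in opposite directions in the 2 cultures, with limma at 2-fold. Higher in EpCAM+ of monoculture and lower in EpCAM+ of coculture were Mmp9, Mcpt8 and Ptgs2. Ptgs2, cyclooxygenase 2, stood in monoculture at 89.98 and 88.4 FPKM in EpCAM+ and 38.2 and 37.4 FPKM in EpCAM-, and in coculture at 28.9 and 28.5 FPKM in EpCAM+ and 69.8 and 69.95 FPKM in EpCAM-; under scaling by the median of ratios its log2 fold change in monoculture was 0.97. Mmp9, gelatinase B, stood in monoculture at 2.38 and 2.56 FPKM and 0.0996 and 0.106 FPKM, and in coculture at 0.333 and 0.368 FPKM in EpCAM+ and 7.24 and 7.797 FPKM in EpCAM-. The reverse held for Col6a1, G0s2, Kcnf1, Ptn, Rspo3 and Srp54a. The coculture EpCAM- libraries of Srp54a lay apart, at 3.41 and 1.71 FPKM. Col6a1 stood in coculture at 229.5 and 229 FPKM in EpCAM+ and 36.3 and 37.2 FPKM in EpCAM-, against the monoculture levels given above, and Ptn, the growth factor pleiotrophin, stood in monoculture at 1.003 and 0.706 FPKM and 24.2 and 23.7 FPKM and in coculture at 1.95 and 1.94 FPKM in EpCAM+ and 0.229 and 0.574 FPKM in EpCAM-.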

How the data were processed

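The authors deposited 1 table of FPKM per library, and these values were taken as deposited. Per the submitters' processing notes, FastQC, cutadapt, HISAT2, SAMtools, HTSeq and edgeR were used with mm10. What wrote the FPKM, with which annotation, and how shared reads were handled is not given in the sources used here. FPKM sums differed between libraries and carry no depth, so no counting interval was computed.

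The 12012 genes with 1 FPKM or more in 2 or more of the 8 libraries entered limma 3.58.1 in R 4.3.3 (lmFit, contrasts.fit, eBayes with trend) on log2(FPKM + 1). Means of the 4 groups were fitted together, which left 4 residual degrees of freedom, and p-values were two-sided with Benjamini-Hochberg adjustment over all genes tested. The difference of the contrast between cultures was the interaction term of the same fit. The fit was tested on simulated data. Summaries and figures used pandas 2.3.3, SciPy 1.17.1, NumPy 2.4.6 and matplotlib 3.10.9 under Python 3.11.15. Positions are from GENCODE M21 (GRCm38, equal to mm10), in which 23334 gene names matched 1 gene, and promoters are from RefSeq.

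Same-numbered libraries did not deviate together (r = 0.056 between the monoculture fractions, and -0.147 to 0.107 over all pairs of groups), so replicate numbers were not used as pairs. Alternatives were other pseudocounts, a filter of 5 FPKM, 3 scalings between libraries, a replicate block, a fit of the monoculture libraries alone and leaving out each library.

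The genes and the 41 lists were chosen with earlier results of these data known. Genes were named by a rule: the highest and lowest fold changes, the widest differences in FPKM, up to 4 called genes of each list and up to 2 called against its majority, and a set of genes of general interest. The genes Agrn, Axl, B2m, Bmp1, C1ra, C1s1, Ccdc173, Col18a1, Col4a1, Col4a2, Col5a3, Col6a1, Col6a2, Col6a3, Csf1, Csf2, Ddr1, Dsg2, Dsp, Ereg, Fbln1, Flt1, Flt4, Fn1, G0s2, Hbegf, Hoxa5, Hoxa10, Itgb1, Kcnf1, Krt14, Krt16, Lama5, Lamb3, Mkx, Pkp2, Plaur, Plod2, Ptgs2, Rspo3, Runx1, Runx2, Serpinh1, Srp54a, Tgfb1, Tgfb2, Tgfbr1, Tnf, Tpm1, Usp44 and Vegfc fall outside it and were chosen after their values were seen, as were the 4 promoter motifs. Some genes of the lists are not reported here by name.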

Additional observations from a re-analysis of the deposited data

Results flagged for a closer look

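The EpCAM contrast differed between monoculture and coculture in 913 described genes, by limma's interaction term at an adjusted p under 0.05 and at least 2-fold. In the values that follow, a positive number means that the log2 fold change of EpCAM+ over EpCAM- was higher in monoculture. Positive differences were found for Mmp9 (4.31), Mcpt8 (3.70), Usp18 (3.30), Bst2 (3.23), Ccbe1 (3.14) and Ptgs2 (2.47). Negative differences were found for Ptx3 (-5.44), Bmp4 (-5.15), Ptn (-4.84), Ly6a (-4.78), Mgp (-4.51), Srp54a (-4.22), Col6a1 (-3.99), Rspo3 (-3.22), Kcnf1 (-2.46) and G0s2 (-2.45). Of these 16 genes, 9 were called in opposite directions in the cultures, and Mgp was listed at 0 in both EpCAM+ libraries of monoculture, so that its value depends on the pseudocount.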

How the results depend on the processing

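The fit with a replicate block called 1853 genes higher and 1510 lower at 2-fold, the same counts as without it, and 10259 against 10296 with no minimum change. It moved no other count by over 1.5 times. Leaving out each monoculture library gave 1837 to 1877 higher and 1499 to 1517 lower. The difference of the contrast between cultures, 913 genes, became 1467 with a pseudocount of 0.1, and 906 to 934 with each of the 8 libraries left out, an alternative chosen after seeing the data in which the lone library of a group is assumed to vary like the other groups. It could not be run on the monoculture libraries alone. The chromosome medians of 0.55, 0.57 and 0.53 for chromosomes 3, 4 and 11 became 0.52, 0.53 and 0.48 with genes of at least 1 FPKM, and 0.32, 0.34 and 0.30 under scaling by the median of ratios, which turned the median of all others from 0.18 to -0.051. That scaling subtracts a nearly constant amount from every fold change. The median of the Wnt list turned to -0.52 with a filter of 5 FPKM (fewer genes), -0.16 under the median of ratios and -0.11 under quantile normalization, and that of the hypoxia list ranged from -0.053 to 0.0019 when each library was left out, the latter without monoculture EpCAM- replicate 1. The filter of 5 FPKM also left 6 Wnt genes higher in place of 10, and 5 complement genes lower in place of 8. Depth cannot be read from FPKM, so whether a value near 0 reflects few reads is unknown.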
